A study of Mus musculus with 12 samples.

Results

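Imprinted growth genes are described here in the hindlimb muscles of mice flown in space. The list names 10 genes (Peg3, H19, Igf2, Mest, Dlk1, Meg3, Rian, Cdkn1c, Grb10 and Nnat) and was read from a table of 36008 genes. It was drawn up with Peg3 in view, because Peg3 stood higher in flight than on the ground in both muscles, so the flight values of Peg3 are given as a description without a test. Of the 10 genes, 7 have values here, and the non-coding RNAs H19, Meg3 and Rian were not analysed here. TPM (transcript abundance scaled for transcript length and for the total of its library) exceeded 5 in at least 1 of the 12 libraries for 5 of the 7, which were tested in a fit over all 10481 genes that passed this level. Mest and Dlk1 stayed below that level in every library, and their values come from a fit without the filter. Each of the 5 tested genes exceeded 5 TPM in at least 1 library of every group, so none entered the test through flight or through the quadriceps alone.

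Both muscles, the gastrocnemius and the quadriceps, came from each of 6 female mice, and their RNA was sequenced. The ground mice (M02, M03 and M08) stayed at the Kennedy Space Center and the flight mice (M11, M12 and M20) lived on the International Space Station, in both cases for 9 weeks, and all were 30 weeks old when the experiment began. The sources name no transgene, and all mice received saline injections, the control arm of a bone therapy experiment. The labels give the strain as C57BL/6 and the study's methods as BALB/c, and the data were not used to decide between them. Carcasses were frozen at the end and muscles of the left hind limb were dissected after thawing, so a library holds a whole muscle with its vessels, nerves and fat. In such bulk RNA, fewer cells that express a gene and less of its RNA per cell cannot be told apart. The quadriceps library of ground mouse M08 stood apart, listing 18172 genes above 0 TPM where the other libraries listed 20291 to 21265, and the values of list members that it moves most are given below with and without it. Muscle fibre markers were abundant in every library, where 14 of 14 were measured and summed to between 95859 and 133560 TPM.

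Imprinted genes are expressed from the allele of only a single parent, set by DNA methylation laid down in the germ line. Many act on growth before and after birth, and several are switched down in most tissues as an animal matures. Peg3 (also called PW1) encodes a large zinc finger protein expressed from the paternal allele, and in muscle it is known from satellite cells, the stem cells of the fibre, and from interstitial progenitor cells. Igf2 encodes a growth factor ligand expressed from the paternal allele. Cdkn1c encodes p57, an inhibitor of cyclin-dependent kinases expressed from the maternal allele, and Grb10 encodes an adaptor that dampens signalling from the insulin and IGF receptors. Nnat encodes a small membrane protein of the endoplasmic reticulum, Mest a hydrolase-like protein of mesoderm and growing fat, and Dlk1 a Notch-like transmembrane protein that restrains fat cell differentiation.

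Peg3 (ENSMUSG00000002265) lies on chromosome 7 at 6703892 to 6730431 of GRCm38, on the minus strand. Usp29 (ENSMUSG00000051527), a deubiquitinase-like gene of the same imprinted domain, runs the opposite way from 6730578 to 6967219, and Zim1 (ENSMUSG00000002266), a zinc finger gene, lies beyond the 3' end of Peg3 at 6671269 to 6696450. The RefSeq starts of Peg3 (6730419) and Usp29 (6730583) are 164 bases apart, and the sequence between them is shown because both genes begin at its ends. Both stood higher in the quadriceps by TPM, but Usp29 lay under the filter and did not pass in the fit without it. A part of this sequence in the muscle differences was not tested. The sequence is read on the Peg3 strand, chr7:6730420-6730582 (GRCm38.p6, 163 bases), with the Usp29 start just before its first base and the Peg3 start just after its last. Capitals mark ATTGG, the reverse complement of the CCAAT box.
Peg3-Usp29 interval: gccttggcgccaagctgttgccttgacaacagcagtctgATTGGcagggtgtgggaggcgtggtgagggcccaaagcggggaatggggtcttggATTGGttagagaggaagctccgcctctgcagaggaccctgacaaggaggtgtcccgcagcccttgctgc
CCAAT, searched on both strands and chosen after the sequence had been seen, began at -124 and -69 from the Peg3 start. At least 1 copy was present in 37.4% of 32851 RefSeq promoter windows of 300 bases. The Peg3 window (250 bases before and 50 after its start) held 13 CpG dinucleotides, the bases that methylation marks, against a median of 7 over all windows, and 37.9% of windows held at least as many. RefSeq windows were matched for 8 of the 10 list members.

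Peg3 was higher in the quadriceps than in the gastrocnemius of every mouse and, within each muscle, higher in every flight library than in every ground library. In the ground gastrocnemius it stood at 5.26, 5.03 and 5.11 TPM in M02, M03 and M08, a mean of 5.13 ± 0.117 (SD, n = 3). In the flight gastrocnemius it stood at 7.96, 8.58 and 13.2 TPM in M11, M12 and M20, a mean of 9.91 ± 2.86. The 3 ground libraries lay close together, while among the flight libraries that of M20 stood above the other 2.

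In the ground quadriceps Peg3 stood at 11.1, 12.8 and 9.61 TPM in M02, M03 and M08, a mean of 11.2 ± 1.61. In the flight quadriceps it stood at 18.5, 26.5 and 25.2 TPM in M11, M12 and M20, a mean of 23.4 ± 4.28. The lowest flight quadriceps library was thus above every other group, and the ground quadriceps overlapped with the flight gastrocnemius.

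**Figure D1:**
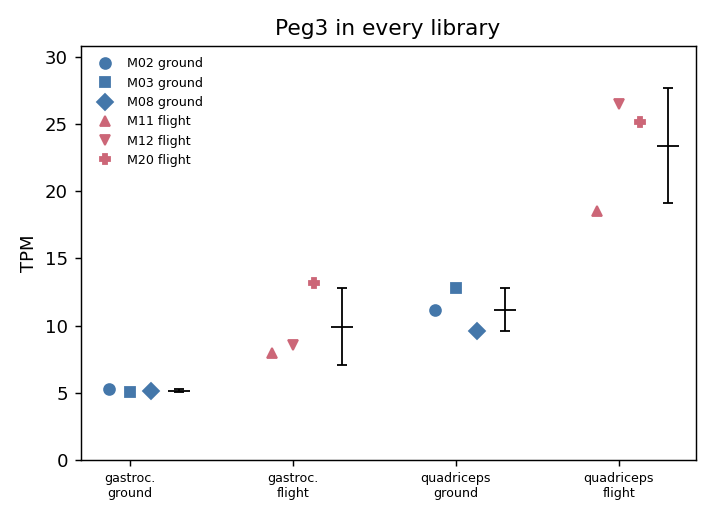
Peg3 TPM (vertical axis) in each of the 12 libraries, by muscle and condition; symbols mark the mouse, and the bars beside them give the group mean and SD (n = 3). The ground gastrocnemius libraries sit between 5.03 and 5.26 TPM and the flight quadriceps libraries between 18.5 and 26.5 TPM.

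Between muscles, a comparison other than the flight comparison that led to the list, Peg3 was called higher in the quadriceps under both conditions. It uses the same libraries, and the list was chosen with earlier results of these data known. The call rule throughout was an adjusted p under 0.05 (limma on log2(TPM + 1), Benjamini-Hochberg over all 10481 genes) and a change of more than 1.5-fold. On the ground the difference, quadriceps minus gastrocnemius, was 0.98 on the log2(TPM + 1) scale (SE 0.138, limma adjusted p = 0.00889), and by mean TPM the ratio was 2.18. After flight the difference was 1.18 (SE 0.138, limma adjusted p = 0.00467), and the ratio was 2.36. It was higher in 6 of 6 mice, by 1.88 to 2.55 times in the ground mice and by 1.91 to 3.09 times in the flight mice, and the muscles did not overlap in either condition. Groups without overlap and with the quadriceps higher made up 28.3% of all tested genes on the ground and 24.4% after flight. The share of all genes higher in 6 of 6 mice was not counted. Of all genes tested, 3.2% were called between the muscles on the ground and 3.34% after flight, with 2.22% and 2.34% called higher in the quadriceps, and Peg3 was the only list member called in each.

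The ground call rested on few mice. Without M02 its adjusted p by limma was 0.0555 and without M03 it was 0.064, with differences of 1.00 and 0.88, whereas without M08 it was 0.0467. After flight the call held without each mouse in turn, with a highest adjusted p of 0.0483 by limma when M12 was left out. The median of all genes was itself shifted by 0.12 toward the quadriceps on the ground and by 0.11 after flight. After rescaling each library by its median ratio, which left shifts of 0.026 and 0.027, Peg3 differed by 0.90 (limma adjusted p = 0.0225) on the ground and by 1.09 (limma adjusted p = 0.0128) after flight. In size, 0.859% of tested genes on the ground and 0.506% after flight had a difference at least as large toward the quadriceps.

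Flight against ground, the values of Peg3 that led to this list were a log2 difference of 0.80 (SE 0.177) in the gastrocnemius and 0.99 (SE 0.167) in the quadriceps, or 1.93 and 2.09 times by mean TPM. Without the M20 library the gastrocnemius difference was 0.60. These values are a description, and no p is given for them. Peg3 was not among the 0.229% and 0.0286% of all genes that met the call rule in these comparisons. The flight difference of Peg3 was larger in the quadriceps by 0.19 (SE 0.195), and it fell to 0.020 without M12 and 0.099 without M08 and rose to 0.34 without M20.

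Usp29, which begins at the other end of the shown sequence, was near the lower end of what TPM resolves and under the filter in every library. It stood at 0.533, 0.399 and 0.512 TPM in the ground gastrocnemius and at 0.816, 1.36 and 0.611 TPM in the ground quadriceps of M02, M03 and M08. After flight it stood at 0.539, 0.438 and 0.461 TPM in the gastrocnemius and at 1.15, 0.993 and 1.16 TPM in the quadriceps of M11, M12 and M20. The quadriceps was higher in 6 of 6 mice, by 1.19 to 3.41 times, without overlap in either condition. Among all tested genes, groups that did not overlap with the quadriceps higher made up 28.3% on the ground and 24.4% after flight. In the limma fit without the filter (25742 genes) the differences were 0.36 on the ground (adjusted p = 0.283) and 0.51 after flight (adjusted p = 0.152), and neither passed. Flight and ground libraries of Usp29 overlapped in both muscles, with group means of 0.479 and 0.481 TPM in the gastrocnemius and 1.101 and 0.929 TPM in the quadriceps.

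Zim1 stood at 3.02, 1.86 and 2.57 TPM in the ground gastrocnemius and at 3.35, 3.23 and 3.75 TPM in the ground quadriceps, which did not overlap (difference 0.36, limma adjusted p = 0.274 without the filter). After flight it stood at 2.43, 2.77 and 3.34 TPM in the gastrocnemius and at 2.39, 3.01 and 4.13 TPM in the quadriceps, and these overlapped. Groups without overlap and with the quadriceps higher made up 28.3% of all tested genes on the ground. The quadriceps to gastrocnemius ratio of Zim1 ran from 0.984 in M11 to 1.74 in M03. Of the sequence words of 31 bases in their transcripts, 0.03% in Peg3 and 0.84% in Zim1 also occur in other genes, against 16.06% in Usp29, mostly shared with Zim3, an antisense gene that overlaps it, so only the Usp29 values depend much on how shared reads were divided.

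**Figure D2:**
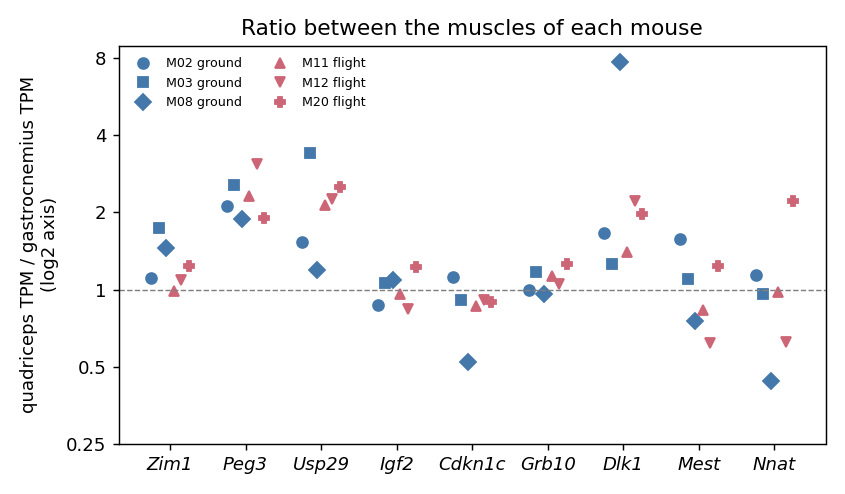
Quadriceps TPM divided by gastrocnemius TPM in each of the 6 mice (vertical axis, log2 scale; dashed line at 1) for Peg3, its neighbours Zim1 and Usp29, and the other measured list members. Peg3 and Usp29 lie above 1 in all 6 mice, between 1.88 and 3.09 and between 1.19 and 3.41, as does Dlk1, whose ratio in M08 was 7.75.

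Igf2 (ENSMUSG00000048583, chromosome 7 at 142650766 to 142666816, minus strand), the growth factor ligand, was level across the 4 groups. It stood at 24.1, 25.01 and 20.2 TPM in the ground gastrocnemius and at 24.7, 26.4 and 20.3 TPM in the flight gastrocnemius. In the quadriceps it stood at 21.1, 26.4 and 22.0 TPM on the ground and at 23.6, 22.2 and 24.8 TPM after flight. All groups overlapped, and the group means ran only from 23.1 to 23.8 TPM. The flight difference was 0.039 in the gastrocnemius (95% interval -0.26 to 0.34, limma adjusted p = 0.912) and 0.027 in the quadriceps (-0.24 to 0.29, limma adjusted p = 0.949). Between muscles it was 0.0041 on the ground (-0.26 to 0.27) and -0.0073 after flight (-0.27 to 0.26), with limma adjusted p of 0.985 and 0.976. Of the 31-base words of Igf2, 63.12% also occur in other genes, 61.9% in the overlapping transcript Gm49394, so the Igf2 values depend on how kallisto divided those reads.

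Cdkn1c (ENSMUSG00000037664, chromosome 7 at 143458339 to 143461050, minus strand), the cell cycle inhibitor, stood higher in flight than on the ground in both muscles without overlap, but did not pass the test in either. In the gastrocnemius it stood at 10.5, 13.8 and 12.4 TPM on the ground and at 15.6, 18.6 and 17.8 TPM after flight, means of 12.2 ± 1.67 and 17.4 ± 1.54. In the quadriceps it stood at 11.8, 12.6 and 6.48 TPM on the ground and at 13.5, 17.0 and 15.9 TPM after flight, means of 10.3 ± 3.33 and 15.5 ± 1.77. The low value in the ground quadriceps is that of M08, the library that stood apart. The flight difference was 0.47 in the gastrocnemius (SE 0.122, limma adjusted p = 0.175) and 0.59 in the quadriceps (SE 0.237, limma adjusted p = 0.445). Without the M08 library the quadriceps difference was 0.31 (limma adjusted p = 0.528).

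Between muscles Cdkn1c differed by -0.27 on the ground (95% interval -0.65 to 0.11, limma adjusted p = 0.309) and by -0.16 after flight (-0.54 to 0.22, limma adjusted p = 0.567). Without mouse M08 the ground difference was 0.014. Of its 31-base words, 27.22% also occur in Gm44732, an antisense gene inside it, and without a known strand setting the reads of both cannot be told apart with certainty.

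Grb10 (ENSMUSG00000020176, chromosome 11 at 11930508 to 12038683, minus strand), the receptor adaptor, also stood higher in flight in both muscles without overlap, by a smaller amount. In the gastrocnemius it stood at 23.6, 22.4 and 22.2 TPM on the ground and at 24.1, 28.0 and 23.7 TPM after flight. In the quadriceps it stood at 23.5, 26.1 and 21.3 TPM on the ground and at 27.3, 29.4 and 29.8 TPM after flight. In the gastrocnemius the lowest flight library, at 23.7 TPM, lay just above the highest ground library, at 23.6 TPM. The flight difference was 0.15 in the gastrocnemius (SE 0.0937, limma adjusted p = 0.495) and 0.28 in the quadriceps (SE 0.101, limma adjusted p = 0.414). Without the M12 flight library the gastrocnemius difference was 0.072. Between muscles Grb10 differed by 0.051 on the ground (limma adjusted p = 0.739, and 0.10 without M08) and by 0.19 after flight (95% interval -0.025 to 0.40, limma adjusted p = 0.216). None of its 31-base words occurs in another gene.

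With Peg3, which led to the list, 3 of the 5 tested members stood above ground in flight without overlap in both muscles. Over all tested genes 12.5% did so in the gastrocnemius, 9.24% in the quadriceps and 3.06%, or 321 genes, in both. Leaving out Peg3, it was 2 of 4, and neither was called. Both muscles came from the same mice, so the gastrocnemius and quadriceps values of a gene are not independent. Without Peg3, the median flight difference over the other 4 tested members was 0.092 in the gastrocnemius and 0.35 in the quadriceps, beside 0.019 and 0.012 over all genes. The quadriceps value leaned on the M08 library. Without it the differences were 0.31 for Cdkn1c, 0.21 for Grb10, 0.20 for Nnat and -0.0042 for Igf2.

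Nnat (ENSMUSG00000067786, chromosome 2 at 157560078 to 157562522, plus strand) varied more between mice than between groups. In the gastrocnemius it stood at 4.58, 4.73 and 6.25 TPM on the ground and at 4.66, 7.26 and 4.04 TPM after flight. In the quadriceps it stood at 5.22, 4.55 and 2.74 TPM on the ground and at 4.57, 4.55 and 8.95 TPM after flight. The extremes were the M08 library on the ground and the M20 library after flight, both from the quadriceps. The flight difference was 0.0080 in the gastrocnemius (95% interval -0.47 to 0.49, limma adjusted p = 0.990) and 0.42 in the quadriceps (-0.29 to 1.12, limma adjusted p = 0.640), and the latter was 0.20 without the M08 library and 0.14 without the M20 library. Between muscles it differed by -0.28 on the ground and 0.13 after flight (limma adjusted p = 0.572 and 0.818), and these became 0.055 without M08 and -0.30 without M20.

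Mest (ENSMUSG00000051855, chromosome 6 at 30723547 to 30748465, plus strand) stood at 2.23, 2.78 and 2.35 TPM in the ground gastrocnemius and at 4.09, 2.66 and 3.07 TPM in the flight gastrocnemius. In the quadriceps it stood at 3.50, 3.05 and 1.77 TPM on the ground and at 3.41, 1.65 and 3.79 TPM after flight. All groups overlapped, and without the filter the flight differences were 0.30 and 0.050 (limma adjusted p = 0.596 and 1), and the latter was -0.16 without the M08 library. Of its 31-base words, 22.0% also occur in Copg2, which overlaps its 3' end on the other strand.

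Dlk1 (ENSMUSG00000040856, chromosome 12 at 109452823 to 109463336, plus strand) was the lowest of the 7. It stood at 0.411, 0.420 and 0.188 TPM in the ground gastrocnemius, at 0.930, 0.328 and 0.539 TPM in the flight gastrocnemius, at 0.682, 0.530 and 1.46 TPM in the ground quadriceps and at 1.31, 0.729 and 1.061 TPM in the flight quadriceps. The quadriceps value was the higher in 6 of 6 mice, by 1.26 to 7.75 times, and the largest ratio came from M08. The groups of the muscles did not overlap on the ground but did after flight, and without the filter the differences were 0.47 (limma adjusted p = 0.293) and 0.35 (limma adjusted p = 0.442). Without mouse M08 the ground difference was 0.18 (limma adjusted p = 0.487). Of all tested genes, 28.3% stood higher in the ground quadriceps without overlap. Rtl1, a retrotransposon-derived gene of the same imprinted domain, stood between 0.208 and 0.576 TPM over the 12 libraries.

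**Figure D3:**
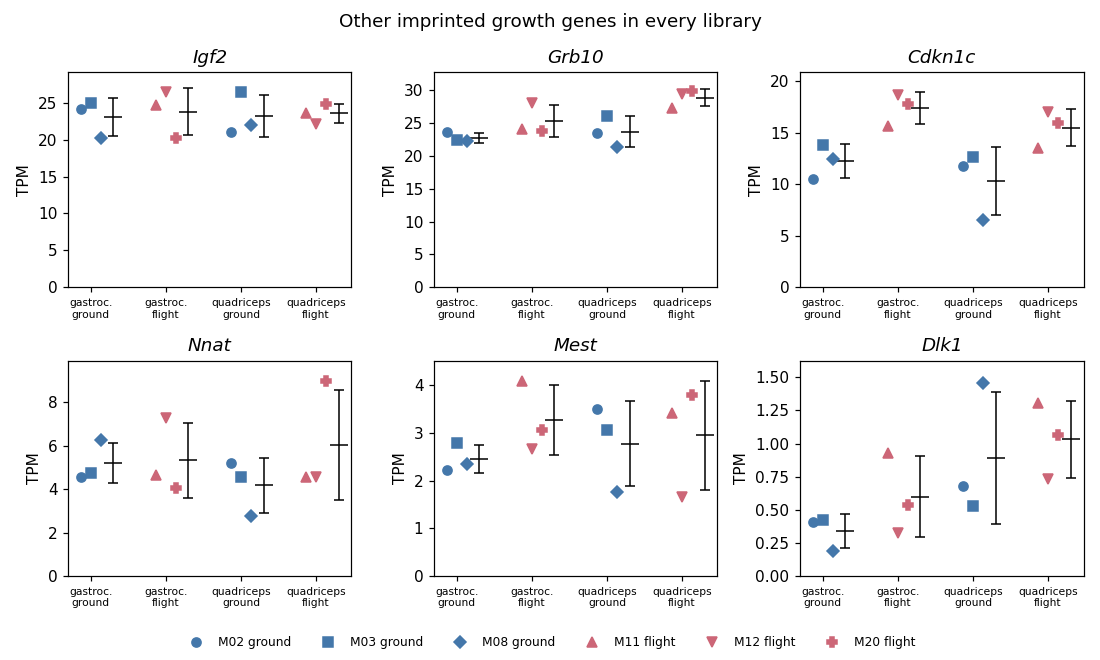
TPM (vertical axes, each from 0) of the other 6 measured list members in the 12 libraries, by muscle and condition; symbols mark the mouse, and bars give the group mean and SD (n = 3). Cdkn1c and Grb10 stand higher in flight without overlap in both muscles, Igf2 is level at group means of 23.1 to 23.8 TPM, and the ground quadriceps library of M08 holds the lowest Cdkn1c (6.48 TPM) and Nnat (2.74 TPM).

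On the TPM scale, which allows genes to be set beside each other, Igf2 (means of 23.1 to 23.8 TPM) and Grb10 (22.7 to 28.8 TPM) were highest in the gastrocnemius and in the ground quadriceps, and their libraries overlapped there. By group means, Cdkn1c (10.3 to 17.4 TPM), Nnat (4.17 to 6.02 TPM), Mest (2.45 to 3.27 TPM) and Dlk1 (0.340 to 1.03 TPM) came below them in this order in every group. Peg3 took a different place from group to group. In the ground gastrocnemius its mean (5.13 TPM) lay just under that of Nnat (5.19 TPM), with overlapping libraries, and in the flight gastrocnemius it lay between Nnat and Cdkn1c. In the ground quadriceps its mean (11.2 TPM) lay above that of Cdkn1c (10.3 TPM), and their libraries overlapped. In the flight quadriceps its mean (23.4 TPM) lay above that of Cdkn1c (15.5 TPM), and its libraries overlapped with those of Igf2 (22.2 to 24.8 TPM).

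**Figure D4:**
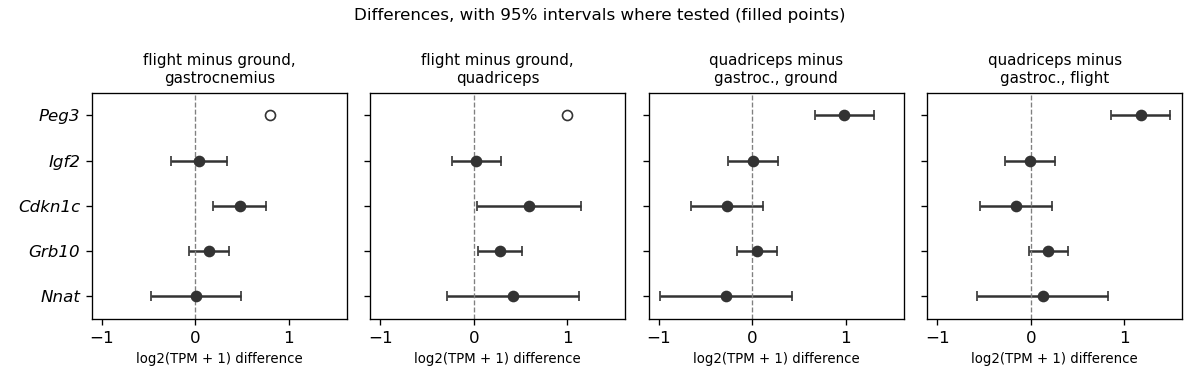
Differences on the log2(TPM + 1) scale (horizontal axes; dashed line at 0) of the 5 tested members for flight against ground in each muscle and for quadriceps against gastrocnemius in each condition. Filled points carry 95% intervals from limma, and open points are the flight values of Peg3, which led to the list and are shown without an interval. Peg3 lies at 0.98 and 1.18 between muscles, and the intervals of the other 4 between muscles include 0.

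Whether the flight effect differed between the muscles was tested by an interaction term over all 12 libraries, with the mouse as a block. No gene of 10481 was called by limma (0%), although 534 (5.09%) had an unadjusted p under 0.05, and the members other than Peg3 had adjusted p between 0.976 and 0.998. The largest difference among them, 0.41 for Nnat, had a 95% interval of -0.58 to 1.40, so for Nnat a difference of that size was not resolved with 3 mice per condition.

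Of 68 other imprinted genes listed, 62 had values and 28 were tested, and none was called in any comparison. Flight against ground, 1 of the 28 had an unadjusted limma p under 0.05 in each muscle, against 15.1% and 10.8% of all genes. These were Nap1l4, a nucleosome assembly gene (0.28, limma adjusted p = 0.171) in the gastrocnemius, and Casd1, a sialic acid acetyltransferase (0.30, limma adjusted p = 0.429) in the quadriceps. Between muscles, 3 on the ground and 6 after flight had an adjusted p under 0.05 at less than 1.5-fold, against 11.9% and 13.4% of all genes tested. Snrpn, a spliceosome component of the Prader-Willi domain, stood at 26.4 ± 2.39 TPM in the gastrocnemius and 35.9 ± 1.495 TPM in the quadriceps on the ground (difference 0.43, limma adjusted p = 0.0216). After flight it stood at 22.0 ± 2.83 and 32.0 ± 1.26 TPM (0.53, limma adjusted p = 0.0108). Ube3a, a ubiquitin ligase of the same domain imprinted in neurons, differed by 0.42 and 0.52 (limma adjusted p = 0.0342 and 0.016). Commd1, a copper and endosome trafficking gene, differed by 0.39 and 0.57 (limma adjusted p = 0.0442 and 0.0138). Pon3, Gnas and Slc38a4 joined them after flight, with differences of 0.45, 0.32 and 0.57, all toward the quadriceps.

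Igf2r, the receptor that clears Igf2, stood between 26.0 and 35.1 TPM over the 12 libraries and passed no test, with differences from -0.13 to 0.17 over the 4 comparisons. Plagl1, a transcription factor of the imprinted gene network, stood between 0.940 and 1.999 TPM, and Phlda2, the neighbour of Cdkn1c, was listed at 0 in 10 of 12 libraries. Kcnq1ot1 and Mirg were not analysed here.

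Of 25 genes of IGF signalling, 18 were tested and none was called for flight in either muscle. The smallest unadjusted limma p were those of Igf2bp2, an RNA-binding protein, in the gastrocnemius (0.51, adjusted p = 0.325) and of Htra1, a secreted protease, in the quadriceps (0.33, adjusted p = 0.403). Between muscles 1 of 18 was called lower in the quadriceps in each condition, against 0.973% and 1% of all genes. On the ground it was Irs2, an adaptor of the insulin and IGF receptors, at 25.2, 22.0 and 12.6 TPM in the gastrocnemius and 11.4, 10.7 and 7.94 TPM in the quadriceps of M02, M03 and M08 (difference -0.88, limma adjusted p = 0.00857). After flight it was Igfbp4, a binding protein that holds IGF, at 26.6 ± 0.557 TPM in the gastrocnemius and 17.2 ± 1.21 TPM in the quadriceps (-0.61, limma adjusted p = 0.0109). The same genes in the other condition were not called.

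Of 27 genes that set or keep imprints (DNA methyltransferases, zinc finger proteins, Polycomb and their partners), 19 were tested and none was called for flight. In the gastrocnemius 7 of 19 stood higher in flight without overlap, against 12.5% of all genes, and 1, Suz12, stood lower (-0.44, limma adjusted p = 0.229). In the quadriceps 4 of 19 stood higher, against 9.24% of all genes, and 0 lower. Those higher in the gastrocnemius included Ctcf, the insulator protein of the Igf2 and H19 domain (0.22, limma adjusted p = 0.305). Between muscles, 1 of 19 was called, after flight, against 3.34% of all genes called and 2.34% called higher in the quadriceps. This was Suz12, a Polycomb subunit, at 13.3, 8.94 and 12.1 TPM in the gastrocnemius and 18.4, 20.5 and 19.5 TPM in the quadriceps of M11, M12 and M20 (0.73, limma adjusted p = 0.0133). On the ground Ezh2 (0.56), Yy1 (0.46) and Eed (0.36) had a limma adjusted p under 0.05 without being called.

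Markers of other cell types were also called in the muscle comparisons in which Peg3 was called. Of all tested genes, 2.22% on the ground and 2.34% after flight were called higher in the quadriceps. Those called lower there made up 0.973% and 1%. Schwann cell and nerve markers summed to 159 to 233 TPM in the ground gastrocnemius and 196 to 321 TPM in the flight gastrocnemius, against 74.0 to 103 and 77.0 to 108 TPM in the quadriceps, and 4 of 6 tested were called lower there in each condition, Mbp by 1.66 and 2.18 on the log2 scale. Adipocyte markers were called higher in the ground quadriceps for 4 of 10 (Adipoq, Cidec, Retn and Fabp4) and for 0 of 10 after flight. Their sums ran from 364 to 503 and 370 to 546 TPM in the gastrocnemius of ground and flight mice, and from 500 to 851 and 368 to 549 TPM in the quadriceps. Most of these sums came from Plin4 (group means of 171 to 215 TPM) and Fabp4 (149 to 292 TPM). On the ground the mean of Plin4 was lower in the quadriceps (171 TPM) than in the gastrocnemius (196 TPM). Fibro-adipogenic progenitor markers, of interstitial cells, were called higher in the quadriceps for 1 of 11 on the ground (Dpt) and 2 of 11 after flight (Dpt and Cxcl14). Their sums were 428 to 518 and 432 to 503 TPM in the gastrocnemius and 468 to 582 and 517 to 630 TPM in the quadriceps. Gsn, at group means of 241 to 316 TPM, was the largest part of these sums. Muscle fibre markers were called higher for 2 of 14 in both conditions (Mylpf and Pvalb), with sums of 95859 to 103350 TPM in the gastrocnemius and 120590 to 133560 TPM in the quadriceps.

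Satellite cell markers were called for 0 of 8 in any comparison. Pax7, which defines these cells, stood between 0.667 and 1.35 TPM over the 12 libraries and Myf5 between 0 and 1.03 TPM. The list's sum, 988 to 1118 TPM in the gastrocnemius and 1108 to 1229 TPM in the quadriceps, came mostly from Des, which fibres express too. Endothelial (11 tested), pericyte and smooth muscle (10) and tendon (5) markers had no call. Macrophage and blood markers had 1 of 9, Cd163, and denervation and regeneration genes had 1 of 10, Sln. Both were called higher in the quadriceps after flight, as were 2.34% of all genes. For flight against ground, no marker of any of these lists was called by limma in either muscle. In the quadriceps, however, 8 of 10 adipocyte markers had an unadjusted limma p under 0.05, and 7 of 10 stood lower in flight without overlap, against 10.8% and 8.12% of all genes. The part of any of these cell types in the Peg3 differences was not tested.

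The genes whose levels followed Peg3 most closely over the 12 libraries, by Pearson r of log2(TPM + 1), were Ubap2l (0.967), Ybx1 (0.961), Foxo4 (0.955), Ash1l (0.955) and Ipo8 (0.948). After subtraction of the 4 group means the leading genes included Rae1 (0.967), Gm47932 (0.942), Gm47628 (0.920) and Gm14287 (0.910), and none of these was among the former. These were picked from 10481 genes, and the libraries share 6 mice. The r of levels includes the differences between the 4 groups, among them the flight difference of Peg3 that led to the list. Within the list, the level of Peg3 was most like that of Grb10 (0.77), and after subtraction of the group means most like that of Cdkn1c (0.51). The lowest r of Peg3 with a list member was -0.0040 by level and -0.55 after the subtraction, the latter larger in size than that with Cdkn1c.

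No skipped or mutually exclusive exon event in the list members was found among the deposited events. The 2423 events of the gastrocnemius (1769 skipped exon and 654 mutually exclusive exon events) and the 2416 of the quadriceps (1763 and 653) included 0 in any of the 10 genes, so no splicing comparison could be made for them. In each muscle 8 events lay in other imprinted genes.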

How the data were processed

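The list and the gene lists beside it were chosen with earlier results of these data known. Poly-A RNA of 12 libraries was sequenced from a stranded mRNA kit. The deposited TPM, per the labels and the study's methods, were made by the authors with kallisto 0.46.0 and summed per gene with tximport, with a strand setting not given in the sources used here; the tables of splicing events came from STAR 2.7.1a alignments to mm10 and rMATS-turbo. Other values in the splicing tables (junction counts with no named samples, and the authors' own p and FDR) were not used; only the gene symbols of the deposited event tables were counted. The authors used DESeq2 1.26.0, which needs counts, and on TPM limma took its place. For flight against ground the study reported more differentially expressed genes in each muscle than limma called here. Here 24 were called in the gastrocnemius and 3 in the quadriceps. Statements that a gene was not called for flight refer to limma on TPM and not to the study's own test.

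TPM carry no depth, and their listed sums were 923295 to 966638 per library, so no counting interval is given and precision rests on 3 mice per group. Symbols were matched for 35856 of 36008 gene IDs. Coordinates come from GENCODE vM21 (GRCm38). Genes above 5 TPM in at least 1 library were tested with limma 3.58.1 (R 4.3.3; lmFit, eBayes with a trend) on log2(TPM + 1), a scale that understates changes of low genes, with Benjamini-Hochberg adjustment. Flight was compared with ground within a muscle (6 libraries), and the muscles within a condition over 12 libraries with the mouse as a fixed block, since the labels give both muscles of each mouse; the deviations of the muscles of a mouse from their group means correlated across genes by -0.12 to 0.33. P-values for flight against ground measure the spread between mice. Those between muscles and for the difference of the flight effect measure how the muscle difference within a mouse varies, pooled over both conditions. Alternatives were pseudocounts of 0.1 and 5, no filter, TPM above 1 in at least 3 libraries, median-ratio rescaling, no trend, and each library or mouse left out. For flight they also included all libraries in 1 fit and the replicate number as a block, and between muscles no mouse block. The script was run on simulated data with independent noise per library and no mouse effect, so that run did not test the mouse block. Named genes were the members, their domain neighbours, and per list the called genes (at most 4 per comparison) or those with the smallest p; for between-muscle differences below the fold, Snrpn, Ube3a, Commd1, Pon3, Gnas, Slc38a4, Ezh2, Yy1 and Eed, and Ctcf, Pax7, Myf5 and Des, were named after their values were seen. Of the 5 genes most like Peg3 after subtraction of group means, 1 is not reported here. The tools also included Python 3.11.15 and matplotlib 3.10.9.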

Additional observations from a re-analysis of the deposited data

How the results depend on the processing

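For flight against ground no member was called in either muscle under any alternative. For Peg3, whose flight values led to the list, this is a description and not a test. Between muscles after flight, Peg3 was called under all alternatives. On the ground the number of members called between muscles was 1, but 0 without the filter on low values (limma adjusted p of Peg3 0.0536, with 25742 genes tested), and 0 to 1 when each mouse was left out, 0 without M02 or M03. For the paired analysis, the muscle comparisons without the mouse as a block called the same number of members, 1 in each condition (limma adjusted p of Peg3 0.00905 and 0.00299). Ground and flight mice share only a replicate number (deviations correlated by -0.18 to 0.11). With that number as a block, flight against ground had 0 members called. The calls over all genes went from 24 to 0 in the gastrocnemius and from 3 to 0 in the quadriceps. Median-ratio rescaling turned small differences below 0, to -0.019 for Nnat in the flight comparison of the gastrocnemius and to -0.089 for Igf2 and -0.042 for Grb10 between muscles on the ground, where the rescaling took out most of the shift of all genes toward the quadriceps.

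Leaving out 1 library or mouse at a time moved the sign of some differences, and not only of those near 0. Between muscles on the ground, -0.27 for Cdkn1c and -0.28 for Nnat became 0.014 and 0.055 without M08. For Nnat the difference of the flight effect, 0.41, became -0.017 without M20. For flight in the gastrocnemius the range was -0.052 to 0.14 for Igf2 and -0.20 to 0.15 for Nnat, and in the quadriceps -0.035 to 0.12 for Igf2. Between muscles on the ground it was -0.055 to 0.099 for Igf2, -0.48 to 0.014 for Cdkn1c, -0.030 to 0.10 for Grb10 and -0.50 to 0.055 for Nnat, and after flight -0.15 to 0.11 for Igf2 and -0.30 to 0.48 for Nnat. For the difference of the flight effect it was -0.15 to 0.11 for Igf2, -0.17 to 0.32 for Cdkn1c and -0.017 to 0.76 for Nnat. Counts over all genes moved more. The 24 calls in the gastrocnemius became 4 without the filter, 5 without a trend and 1 to 133 with a library left out (133 without the flight library of M11), and the 3 in the quadriceps became 1 to 4. Between muscles 335 on the ground became 187 with a pseudocount of 5, 77 without the filter and 36 to 335 with a mouse left out, and 350 after flight became 216, 200 and 77 to 354. For the difference of the flight effect 0 became 2 without the filter and 1 without M12. The cause of these shifts was not tested. The alternatives fixed for splicing events were not run because no event lay in a member. With 3 mice a group, small differences were beyond the precision of these data.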

Other observations

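Splicing events deposited for imprinted genes outside the list were in the same 6 genes in both muscles. They were skipped exons of Cobl, Gnas, H13, Nap1l4, Trappc9 and Ube3a, 7 events in each muscle, and 1 mutually exclusive exon event of Nap1l4. Their inclusion levels were not analysed here.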
